A study of Mus musculus with 4 samples.

Results

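The genes described here are 10 markers that have been proposed for melanoma-initiating or stem-like tumor cells, *Prom1*, *Sox2*, *Cd44*, *Ngfr*, *Abcb5*, *Abcg2*, *Aldh1a1*, *Kdm5b*, *Klf4* and *Nes*. They were taken by symbol from a list drawn up with earlier results of these data known, and each matched 1 of the 39179 Ensembl genes counted. The data comprise 4 RNA-seq libraries of the mouse melanoma cell line B16F1. In 2 libraries the RNA came from parental B16F1 cells, the control, and in 2 from tumor repopulating cells (TRCs), which grew as spheroids from single B16F1 cells in soft 3D fibrin gels. No genotype or drug differed between the groups, but parental cells are cultured on rigid 2D dishes, so survival in the gel and growth in 3D cannot be told apart here. The replicates of each group are numbered 1 and 3. Nothing in the labels says that they came from separate cultures, so the p-values measure the spread between these libraries, which may be technical.

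The libraries held 35948295 to 43511554 counts on genes. Levels are given as CPM, counts divided by the library size after scaling with edgeR's TMM factors, and means are given ± SD over the 2 libraries of a group (n = 2). At this depth 3 counts, the smallest number taken as detectable, equal 0.0674 to 0.0849 CPM. Floors and counting intervals cover counting error only. All 10 melanocyte lineage markers examined, among them *Tyrp1*, *Dct* and *Sox10*, were above 1 CPM in all 4 libraries. Their summed level was 19465 and 16261 CPM in parental replicates 1 and 3 and 24642 and 27412 CPM in TRC replicates 1 and 3. *Dct* alone went from a mean of 5008 ± 960 CPM in parental cells to 10580 ± 795 CPM in TRCs. Of these 10 genes, 2 (20%) were called higher in the exact test described below, beside 8.81% of all genes tested. They were *Dct* and *Oca2*, of which the quasi-likelihood test called *Oca2*. The part of the summed level in the levels of the 10 tumor-initiating markers was not tested. Summed leukocyte markers stayed between 1.92 and 5.1 CPM and summed endothelial markers between 0.566 and 2.5 CPM, and epithelial markers did not exceed 1.83 CPM.

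Tumor-initiating markers are mostly of 3 kinds. Surface proteins such as CD133 (*Prom1*), CD44 and the neurotrophin receptor CD271 (*Ngfr*) are used to sort cells. Drug pumps and detoxifying enzymes (*Abcb5*, *Abcg2*, *Aldh1a1*) are read out by dye exclusion or enzyme activity. Transcription factors, chromatin regulators and cytoskeletal proteins of progenitor cells (*Sox2*, *Klf4*, *Kdm5b*, *Nes*) complete the set. In melanoma, the histone H3 lysine demethylase JARID1B, the product of *Kdm5b*, is known for marking a slow-cycling population, and ABCB5 and CD271 for marking cells with high tumor-initiating capacity in human tumors.

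The markers did not move together. *Kdm5b* rose 5.02-fold in TRCs, *Nes* fell, *Cd44*, *Abcg2*, *Klf4* and *Prom1* did not pass the test, *Ngfr* and *Aldh1a1* had few counts and *Sox2* and *Abcb5* had none. In all, 4 of the 10 markers (*Sox2*, *Ngfr*, *Abcb5* and *Aldh1a1*) were below 1 CPM in all 4 libraries. *Prom1* reached 1 CPM in 2 libraries, and 5 markers did so in all 4. For comparison, 47.4% of protein-coding genes were below 1 CPM in all 4 libraries and 29.7% had no count at all. The 6 markers with at least 1 CPM in at least 2 libraries were tested with edgeR's exact test, fitted on all 11483 genes that passed this filter, with Benjamini-Hochberg adjustment over all of them (FDR). *Kdm5b* was the 1 marker called higher and *Nes* the 1 called lower at FDR under 0.05, in a comparison in which 8.81% of all genes tested were called higher and 7.05% lower. The median log2 fold change of the 6 markers was -0.046, and that of all genes tested was 0.0034.

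**Figure D1:**
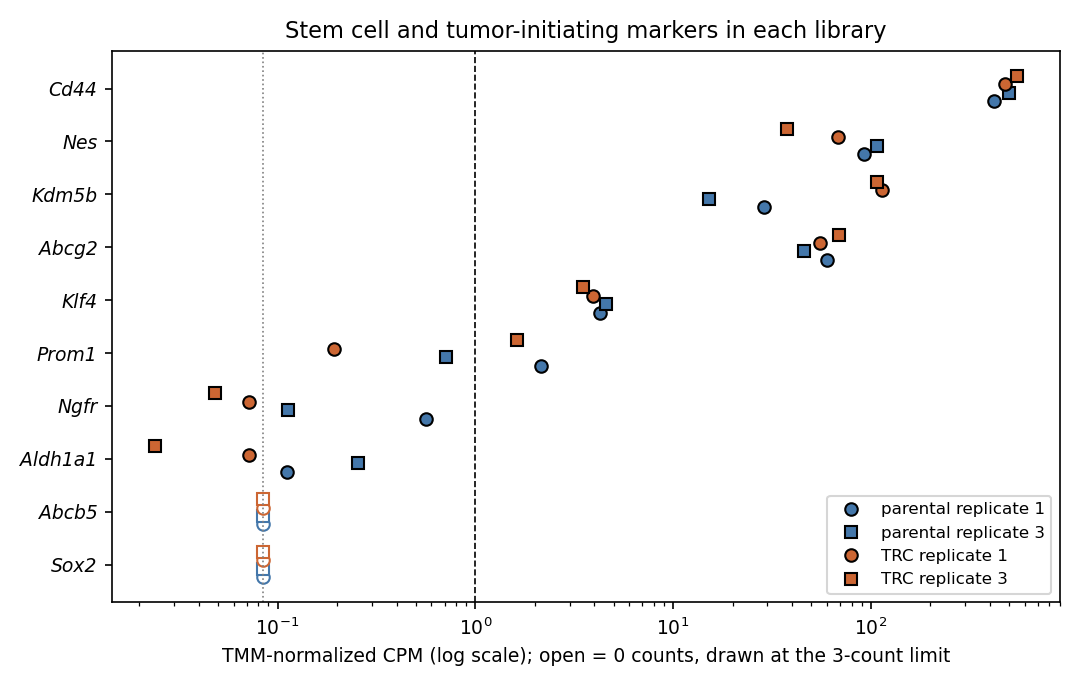
TMM-normalized CPM (log scale) of the 10 markers in each of the 4 libraries, with parental libraries in blue and TRC libraries in orange, circles for replicate 1 and squares for replicate 3. The dashed line marks 1 CPM and the dotted line the level of 3 counts, where the open symbols of *Sox2* and *Abcb5*, with 0 counts, are drawn. *Kdm5b* is the marker whose TRC libraries, at 114 and 107 CPM, stand far above its parental libraries, at 28.8 and 15.2 CPM.

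*Kdm5b* (ENSMUSG00000042207) encodes a demethylase that removes methyl groups from lysine 4 of histone H3, a mark of active promoters. It lies on the plus strand of chromosome 1 from 134560171 to 134635285 (GRCm38). Its level was 28.8 and 15.2 CPM in parental replicates 1 and 3, and 114 and 107 CPM in TRC replicates 1 and 3. The TRC libraries lay close together and every TRC library was at least 3.72 times every parental library, up to 7.5 times. The mean rose from 22 ± 9.61 CPM in parental cells to 111 ± 4.93 CPM, and the log2 fold change was 2.33 (SE 0.31 from DESeq2, FDR = 1.71e-12 in edgeR's exact test). The 95% interval from DESeq2 ran from 1.73 to 2.93 on the log2 scale. By p-value *Kdm5b* ranked 32 and by log2 fold change 112 among the 11483 genes tested. The spread between the parental libraries was the larger of the 2 groups, since replicate 1 held nearly double the level of replicate 3. Leaving out any single library kept the log2 fold change between 1.94 and 2.86, and edgeR's quasi-likelihood test gave an FDR of 0.00907.

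The promoter of *Kdm5b* is shown because *Kdm5b* is the marker that rose. The 250 bases before the RefSeq transcription start (GRCm38.p6, chr1:134559928-134560177, plus strand) are given 5′ to 3′ with CpG dinucleotides in capitals.
Kdm5b: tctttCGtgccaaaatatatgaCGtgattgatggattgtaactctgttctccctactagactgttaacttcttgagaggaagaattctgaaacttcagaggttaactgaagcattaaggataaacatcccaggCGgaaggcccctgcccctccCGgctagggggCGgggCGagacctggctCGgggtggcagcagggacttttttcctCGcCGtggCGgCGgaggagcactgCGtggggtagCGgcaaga
This window held 13 CpG dinucleotides, at an observed over expected ratio of 0.718. It also held 2 matches, on either strand, to ACGTG or GCGTG, the core letters that hypoxia-inducible factors are known to bind. In the corresponding windows of all markers, 4 of the 10 had such a match (*Cd44*, *Ngfr*, *Kdm5b* and *Klf4*), and so did 38.6% of all 32841 promoter windows. A match of this kind is a description of the letters and shows no binding.

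The paralogs of *Kdm5b* were measured in the same libraries and did not pass the test. *Kdm5a* was at 172 and 184 CPM in parental replicates 1 and 3 and at 169 and 165 CPM in TRC replicates 1 and 3, with a log2 fold change of -0.092 (FDR = 0.837). *Kdm5c* was at 74.7 and 84.6 CPM in parental cells and 89.7 and 88.1 CPM in TRCs, with a log2 fold change of 0.16 (FDR = 0.7). The difference between the changes of the paralogs was not tested. *Kdm5d*, which is Y-linked, had 0 counts in every library. On a scale of counts per union exon length (TPM), *Kdm5b* was at 5.86 and 3.08 TPM in parental replicates 1 and 3, against means of 42.3 ± 1.77 for *Kdm5a* and 37.6 ± 3.21 for *Kdm5c*. In TRCs *Kdm5b* was at 21.6 ± 2.37 TPM, against 38.1 ± 3.27 and 40.4 ± 3.16. On this scale *Kdm5b* stayed the lowest of these 3 genes in both groups. This order depends on the length used, which was 16555 bases for *Kdm5b*. In CPM, *Kdm5b* in TRC replicates 1 and 3 (114 and 107) was above *Kdm5c* (89.7 and 88.1). A list of 17 genes that hold the other KDM5 genes, further histone demethylases and the complexes that write H3K4 methylation had 16 genes tested. In edgeR's exact test and in its quasi-likelihood test 0 of the 16 were called, and 2 had an unadjusted p under 0.05 in the exact test. The exact test called 8.81% of all genes tested higher and 7.05% lower. In this list the log2 fold change was positive for 4 and negative for 12. Its median was -0.22, beside 0.0034 for all genes tested.

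*Nes* (ENSMUSG00000004891) encodes nestin, an intermediate filament protein of neural progenitors that is also found in melanoma. It lies on the plus strand of chromosome 3 from 87971078 to 87980451. Its level was 91.8 and 107 CPM in parental replicates 1 and 3, and 68.3 and 37.8 CPM in TRC replicates 1 and 3. Both TRC libraries were below both parental libraries, but they differed from each other by more than the parental libraries did. From 99.6 ± 11 CPM the mean fell to 53.1 ± 21.6 CPM, and the log2 fold change was -0.91 (SE 0.3 from DESeq2, FDR = 0.0133 in edgeR's exact test). This call did not hold in every setting. The FDR was 0.0745 in the quasi-likelihood test, 0.322 without TRC replicate 3 and 0.122 without parental replicate 3.

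Of the other intermediate filament genes listed, 3 of 9 were tested. In edgeR's exact test and in its quasi-likelihood test 0 were called, and 2 had an unadjusted p under 0.05 in the exact test. *Vim*, encoding vimentin, was at 1692 and 1973 CPM in parental replicates 1 and 3 and at 1059 and 1360 CPM in TRC replicates 1 and 3, with a log2 fold change of -0.6 (FDR = 0.072). Its groups did not overlap, as for 60.6% of all genes tested. *Vim* was called lower by DESeq2 (FDR = 0.0374) and when scaled by library size alone, but not in the quasi-likelihood test (FDR = 0.154). *Gfap* and *Des* had log2 fold changes of 1.23 (FDR = 0.0869) and -0.092 (FDR = 0.951). Summed markers of fibroblasts, which can also express nestin, were at 12.1 and 10.1 CPM in parental replicates 1 and 3 and at 5.81 and 3.24 CPM in TRC replicates 1 and 3. Of these 8 markers 3 were tested, *Col1a2* was called lower and *Pdgfra* and *Col1a1* overlapped between groups. Of the 5 below the filter, *Pdgfrb* had counts of 32 and 10 in parental cells and of 0 and 5 in TRCs (FDR = 0.0236 without a filter, 0.179 in the quasi-likelihood test), and *Col3a1*, *Dcn*, *Lum* and *Thy1* had at most 6 counts in any library. The part of such cells in the level of *Nes* was not tested. In bulk RNA, fewer cells of a kind and less RNA per cell cannot be told apart.

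**Figure D2:**
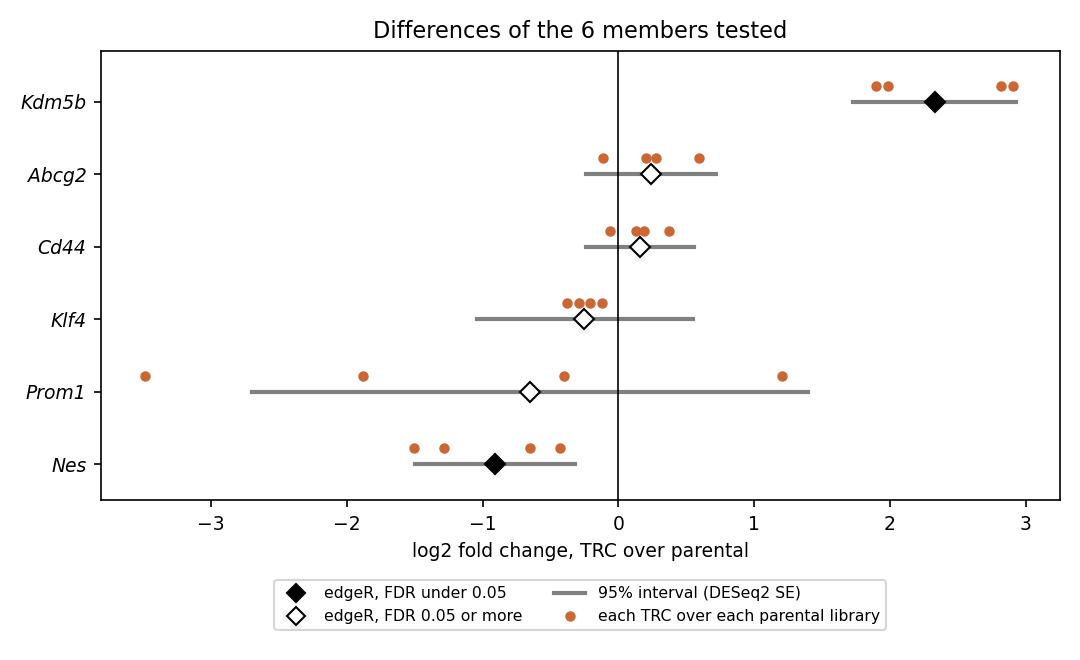
Log2 fold change (TRC over parental) of the 6 markers tested, with edgeR's estimate as a diamond (filled where FDR is under 0.05), the 95% interval from the DESeq2 standard error as a grey bar and the 4 ratios of a TRC to a parental library as orange dots. All 4 dots of *Kdm5b* lie to the right of 0, all 4 of *Nes* to the left, and those of *Prom1* on both sides.

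*Cd44* (ENSMUSG00000005087, minus strand, chromosome 2, 102811141 to 102901665) encodes the surface receptor for hyaluronan that is used to sort tumor-initiating cells of several cancers. It was the most abundant of the 10 markers. Its level was 421 and 499 CPM in parental replicates 1 and 3, and 479 and 546 CPM in TRC replicates 1 and 3. The groups overlapped, since TRC replicate 1 lay between the parental libraries. The means were 459.9 ± 55.3 and 513 ± 47.2 CPM, and the log2 fold change was 0.16 (SE 0.2 from DESeq2, FDR = 0.718). The 95% interval of the fold ran from 0.846 to 1.47. Per length, its mean over the 4 libraries was above that of 95% of the genes tested. The counts are per gene, so the splice forms of *Cd44* were not distinguished.

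Among 22 genes for ligands, hyaluronan enzymes and partners of CD44, 12 were tested. Of the 12, 2 (16.7%) were called higher and 0 lower, beside 8.81% and 7.05% of all genes tested. The median log2 fold change was 0.1. *Hyal1*, encoding a lysosomal hyaluronidase, rose from 7.21 ± 3.79 to 18.8 ± 2.67 CPM, with a log2 fold change of 1.38 (FDR = 0.00938, 0.0616 in the quasi-likelihood test). *Spp1*, encoding osteopontin, rose from 1.52 ± 0.745 to 4.23 ± 1.9 CPM, with a log2 fold change of 1.47 (FDR = 0.0416, 0.115 in the quasi-likelihood test). *Has2*, encoding a hyaluronan synthase, had at most 3 counts in any library. The genes *Ezr*, *Rdx* and *Msn* (ezrin, radixin and moesin), whose products link CD44 to actin, were all tested and had log2 fold changes of 0.15, -0.25 and -0.039, none of them called.

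*Prom1* (ENSMUSG00000029086, minus strand, chromosome 5, 43993620 to 44102032) encodes CD133, a pentaspan membrane protein of plasma membrane protrusions. Its counts were 96 and 25 in the parental libraries (replicates 1 and 3) and 8 and 68 in the TRC libraries, which correspond to 2.16, 0.708, 0.192 and 1.63 CPM. In counting error alone the libraries of a group were apart, with 95% intervals of 1.75 to 2.63 and 0.458 to 1.04 CPM in parental cells and of 0.083 to 0.379 and 1.27 to 2.07 CPM in TRCs. The groups overlapped, since TRC replicate 3 lay between the parental libraries and TRC replicate 1 below both. The log2 fold change was -0.65 (SE 1.05 from DESeq2, FDR = 0.65), and its 95% interval ran from -2.7 to 1.4. It was 0.37 without parental replicate 1 and 0.16 without TRC replicate 1, so its sign rested on single libraries. In GENCODE M21, which is not the annotation the authors counted with, 5.91% of its exonic bases overlap an antisense gene. That gene had 0 counts in every library. *Prom2*, the other prominin gene, had at most 1 count in any library. Of 6 prominin family genes and apical membrane partners 4 were tested, and 0 were called by the exact or the quasi-likelihood test of edgeR or had an unadjusted p under 0.05.

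*Abcg2* (ENSMUSG00000029802), on the plus strand of chromosome 6 from 58584523 to 58695676, encodes the efflux pump behind dye exclusion by side population cells. It was at 59.9 and 45.7 CPM in parental replicates 1 and 3, and at 55.5 and 69 CPM in TRC replicates 1 and 3. The groups overlapped. The means were 52.8 ± 10 CPM and 62.3 ± 9.55 CPM, with a log2 fold change of 0.24 (SE 0.25 from DESeq2, FDR = 0.565) and a 95% interval of the fold from 0.847 to 1.65.

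Of 24 further transporter genes of the B, C and G classes, 12 were tested and 10 were called in neither direction. The 1 called higher and the 1 called lower were 8.33% each, near the 8.81% and 7.05% of all genes tested. The median log2 fold change was -0.13. *Abcb1b*, encoding a P-glycoprotein, was at 23.9 and 30.8 CPM in parental replicates 1 and 3 and fell to 11.4 and 8 CPM in TRC replicates 1 and 3, a log2 fold change of -1.49 (SE 0.3 from DESeq2, FDR = 0.000243). Its call held in the quasi-likelihood test (FDR = 0.0225) and with each library left out. *Abcb1a*, the other P-glycoprotein gene, had at most 5 counts in any library. Reads that fit both genes equally well were not unique and were assigned to neither, and their part in these levels was not tested. *Abcc1*, encoding the multidrug resistance protein MRP1, rose from 85.3 ± 6.19 to 140 ± 43.7 CPM, a log2 fold change of 0.72 (FDR = 0.0397, 0.0913 in the quasi-likelihood test).

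*Klf4* (ENSMUSG00000003032, minus strand, chromosome 4, 55527143 to 55532466) encodes a zinc finger factor of the pluripotency network. It was at 4.29 and 4.56 CPM in parental replicates 1 and 3, and at 3.94 and 3.51 CPM in TRC replicates 1 and 3. The groups did not overlap, which was also the case for 60.6% of all genes tested, and 3 of the 6 markers tested (*Kdm5b*, *Klf4* and *Nes*) were of this kind. The log2 fold change was -0.25 (SE 0.41 from DESeq2, FDR = 0.764), with a 95% interval from -1.04 to 0.55.

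Among 16 other KLF genes, 11 were tested, with a median log2 fold change of -0.13. Of the 11, 2 (18.2%) were called higher and 2 (18.2%) lower, beside 8.81% and 7.05% of all genes tested. *Klf9* and *Klf10* rose, with log2 fold changes of 1.13 (FDR = 0.0401) and 1.14 (FDR = 0.0189). The quasi-likelihood test gave FDRs of 0.112 and 0.0839. *Klf15* and *Klf16* fell, with log2 fold changes of -1.16 (FDR = 0.00149) and -1.04 (FDR = 0.00556), and quasi-likelihood FDRs of 0.0388 and 0.0342. *Klf15* lost its call without parental replicate 3 or TRC replicate 3 (FDR up to 0.108), and *Klf16* without parental replicate 3, TRC replicate 1 or TRC replicate 3 (FDR up to 0.113). *Klf6*, a family member expressed at far higher levels per length than *Klf4*, was at 104 ± 10.4 TPM in parental cells and 91.6 ± 9.61 TPM in TRCs, with FDR = 0.754. *Klf5* did not pass the filter, at 0.384 to 1.56 CPM.

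**Figure D3:**
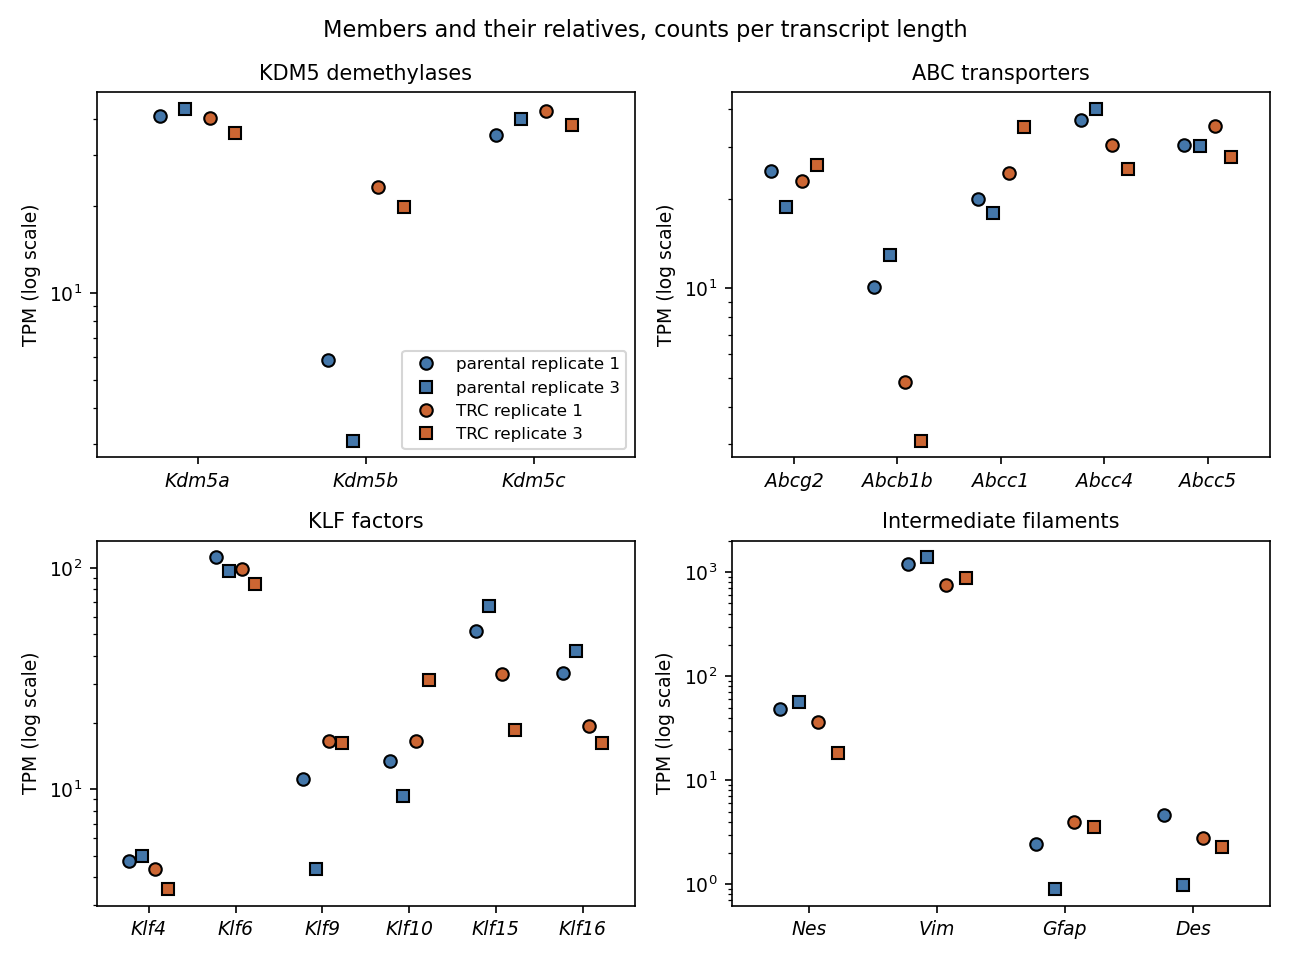
TPM (log scale) in each of the 4 libraries for *Kdm5b*, *Abcg2*, *Klf4* and *Nes* and relatives of each, with parental libraries in blue and TRC libraries in orange, circles for replicate 1 and squares for replicate 3. *Kdm5b* moved from 5.86 and 3.08 TPM to 23.3 and 19.9 TPM while *Kdm5a* and *Kdm5c* stayed between 35.4 and 43.5 TPM. Of the transporters drawn, *Abcb1b* is the one called lower.

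*Ngfr* and *Aldh1a1* had counts but stayed below the filter. *Ngfr* (ENSMUSG00000000120, minus strand, chromosome 11, 95568818 to 95587735), encoding the neurotrophin receptor p75, had counts of 25 and 4 in the parental libraries (replicates 1 and 3) and of 3 and 2 in the TRC libraries. Most of its counts thus came from parental replicate 1, at 0.562 CPM. The ratio of summed counts, parental over TRC, was 6.05 with a 95% counting interval from 2.32 to 20, 1.89 (0.374 to 8.76) without parental replicate 1 and 9.35 (3.52 to 31.3) without parental replicate 3. It was 7.56 (1.91 to 65.4) without TRC replicate 1 and 5.04 (1.56 to 25.9) without TRC replicate 3. *Aldh1a1* (ENSMUSG00000053279, plus strand of chromosome 19 from 20492715 to 20643465), encoding a retinal dehydrogenase, had counts of 5 and 9 in the parental libraries and of 3 and 1 in the TRC libraries. The ratio was 3.65 (1.15 to 15.2), 2.34 (0.503 to 11.8) without parental replicate 3 and 2.43 (0.679 to 13.2) without TRC replicate 3. It was 5.3 (1.48 to 23.6) without parental replicate 1 and 7.3 (1.11 to 309) without TRC replicate 1. When all 19571 genes with a count were fitted without a filter, edgeR's exact test gave FDR = 0.121 for *Ngfr* and FDR = 0.336 for *Aldh1a1*, with unadjusted p-values of 0.0153 and 0.0754. Neither was called, in a fit in which 4.63% of genes were called higher and 3.89% lower.

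Genes around both were expressed. Of 20 other genes of p75 signaling found, 7 were tested, and their median log2 fold change was 0.21. Of the 7, 2 (28.6%) were called higher and 0 lower, beside 8.81% and 7.05% of all genes tested. *Sort1*, encoding sortilin, a sorting receptor that pairs with p75 to bind proneurotrophins, was at 423 and 425 CPM in parental replicates 1 and 3 and rose to 771 and 719 CPM in TRC replicates 1 and 3. Its log2 fold change was 0.81 (SE 0.18 from DESeq2, FDR = 0.0047), with FDR = 0.0412 in the quasi-likelihood test. *Maged1*, encoding an adaptor that binds the intracellular part of p75, rose from 359 ± 52 to 667 ± 46.1 CPM, a log2 fold change of 0.89 (FDR = 0.00255, 0.0379 in the quasi-likelihood test). *Maged1* lost its call without parental replicate 1 or TRC replicate 3 (FDR up to 0.0635), and *Sort1* without parental replicate 3 or TRC replicate 1 (FDR up to 0.0908). *Ntf3* and *Ntrk2* had 0 counts in every library. Of 19 other aldehyde dehydrogenase genes, 14 were tested, 1 (7.14%) was called higher and 0 lower, again beside 8.81% and 7.05% of all genes. The gene called was *Aldh6a1*, encoding an enzyme of valine breakdown, which rose from 19.6 ± 4.79 to 40 ± 8.84 CPM, a log2 fold change of 1.03 (FDR = 0.00504). It lost its call without parental replicate 3 or TRC replicate 1 (FDR up to 0.244). *Aldh2* was at 254 ± 13 CPM in parental cells and 303 ± 57.1 CPM in TRCs, and *Aldh1a3* at 3.47 ± 1.06 and 3.64 ± 0.185 CPM, neither of them called. *Aldh1a7*, a close relative of *Aldh1a1*, had counts of 2 and 0 in parental replicates 1 and 3 and of 9 and 10 in TRC replicates 1 and 3. Alignments that were not unique were assigned to no gene, and their part in the counts of these genes was not tested.

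*Sox2* (ENSMUSG00000074637, plus strand of chromosome 3 from 34650405 to 34652461), encoding a transcription factor of neural and pluripotent stem cells, had 0 counts in each of the 4 libraries. *Abcb5* (ENSMUSG00000072791, minus strand, chromosome 12, 118867824 to 118966421), encoding an ABC transporter proposed for melanoma-initiating cells, had 0 counts as well. By the limit of 3 counts, a count of 0 allows up to 0.0849 CPM in the shallowest library, and the upper end of its exact 95% counting interval is 0.104 CPM. In GENCODE M21 no exon of another gene overlaps an exon of either gene. Overlaps in the Ensembl annotation that the authors counted with were not examined. The promoters of these markers differ in base composition and are shown beside that of *Cd44*, the most abundant marker. Each is the 250 bases before the RefSeq start (GRCm38.p6), 5′ to 3′ with CpG dinucleotides in capitals, for *Sox2* chr3:34649745-34649994 on the plus strand, for *Abcb5* chr12:118966422-118966671 on the minus strand and for *Cd44* chr2:102901666-102901915 on the minus strand.
Sox2: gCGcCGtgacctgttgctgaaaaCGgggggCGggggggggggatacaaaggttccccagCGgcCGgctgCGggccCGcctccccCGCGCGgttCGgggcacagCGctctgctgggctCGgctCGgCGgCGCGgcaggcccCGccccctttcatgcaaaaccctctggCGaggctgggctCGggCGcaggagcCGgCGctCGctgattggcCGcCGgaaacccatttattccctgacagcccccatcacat
Abcb5: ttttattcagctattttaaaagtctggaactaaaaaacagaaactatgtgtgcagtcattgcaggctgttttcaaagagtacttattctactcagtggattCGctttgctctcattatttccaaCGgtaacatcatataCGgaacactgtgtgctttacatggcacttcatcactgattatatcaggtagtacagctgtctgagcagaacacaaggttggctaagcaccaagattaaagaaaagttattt
Cd44: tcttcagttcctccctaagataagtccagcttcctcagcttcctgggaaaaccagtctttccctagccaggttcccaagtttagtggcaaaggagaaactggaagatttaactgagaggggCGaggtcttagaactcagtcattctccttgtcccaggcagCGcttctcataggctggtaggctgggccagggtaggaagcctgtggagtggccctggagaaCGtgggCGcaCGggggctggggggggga
The *Sox2* window held 27 CpG dinucleotides, the *Abcb5* window 3 and the *Cd44* window 5, with observed over expected ratios of 0.833, 0.354 and 0.257. The median over all promoter windows was 6 CpG dinucleotides and a ratio of 0.374. The ratio was at least 0.6 in 34% of all windows and for 4 of the 10 markers, *Sox2*, *Kdm5b*, *Klf4* and *Nes*. Of these 3 windows, that of *Sox2*, with 0 counts, was the richest in CpG, and that of *Cd44* had the lowest ratio.

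Both gene families had expressed members. Of 16 other SOX genes, 7 were tested. In edgeR's exact test and in its quasi-likelihood test 0 were called, and 1 had an unadjusted p under 0.05 in the exact test. *Sox10*, the neural crest factor of melanocytes, was at 601 and 451 CPM in parental replicates 1 and 3 and at 590 and 566 CPM in TRC replicates 1 and 3, with FDR = 0.764. Of 18 pluripotency genes 13 were below 1 CPM in all 4 libraries, among them *Pou5f1* and *Nanog*, with at most 1 count in any library. Of the 4 tested, 0 were called by either edgeR test and 0 had an unadjusted p under 0.05. *Myc* was at 82.8 ± 5.73 CPM in parental cells and 60.1 ± 19.1 CPM in TRCs, with a log2 fold change of -0.46 (FDR = 0.227).

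Levels of the markers can be set in order per length. In parental cells *Cd44* was highest at 228 ± 26.7 TPM, followed by *Nes* at 52.1 ± 5.59, *Abcg2* at 21.8 ± 4.19, *Klf4* at 4.88 ± 0.194 and *Kdm5b* at a mean of 4.47 TPM. *Klf4* and *Kdm5b* did not differ beyond their spread, and *Prom1*, *Ngfr* and *Aldh1a1* were all at a mean under 1 TPM. In TRCs *Cd44* was again highest, at 244 ± 6.49 TPM, and *Nes* at 27.1 ± 12.6, *Abcg2* at 24.5 ± 2.17 and *Kdm5b* at 21.6 ± 2.37 TPM did not differ beyond their spread. *Klf4* came next at 3.95 ± 0.584 TPM. The order of the means thus differed in the place of *Kdm5b*, and in TRCs *Nes* no longer stood apart from *Abcg2* beyond their spread. The length is that of all annotated exons of a gene, which lowers the value of a gene with rarely used exons.

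Of 29 other proposed cancer stem cell markers, 15 were tested, 5 (33.3%) were called higher and 2 (13.3%) lower. Of all genes tested, 8.81% were called higher and 7.05% lower. In the quasi-likelihood test 3 of the 15 were called, *Dclk1* higher and *Mcam* and *Itga6* lower, beside 4.94% and 4.24% of all genes. This list, too, was drawn up with earlier results of these data known. The median log2 fold change of this list was 0.35. *Mcam*, encoding the melanoma cell adhesion molecule CD146, was at 289 and 425 CPM in parental replicates 1 and 3 and fell to 94.5 and 139 CPM in TRC replicates 1 and 3, a log2 fold change of -1.61 (SE 0.28 from DESeq2, FDR = 6.85e-07). *Dclk1*, encoding a microtubule-associated kinase, was at 66.6 and 56.2 CPM and rose to 133 and 161 CPM, a log2 fold change of 1.26 (SE 0.22 from DESeq2, FDR = 5.17e-06). Both calls held in the quasi-likelihood test and with each library left out. *Axl*, encoding a receptor tyrosine kinase, was at 8.49 and 2.35 CPM in parental replicates 1 and 3 and at 39.3 and 9.77 CPM in TRC replicates 1 and 3, so that parental replicate 1 and TRC replicate 3 were close. Its log2 fold change was 2.18 (SE 1.19 from DESeq2, FDR = 0.00923), the FDR was 0.0966 in the quasi-likelihood test, and without single libraries the log2 fold change ran from 0.83 to 3.38 with an FDR of up to 0.558.

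The RNA-binding protein genes *Msi1* and *Msi2* rose, with log2 fold changes of 1.49 (FDR = 0.0161) and 0.75 (FDR = 0.02), as did *Nrp1*, encoding a co-receptor for semaphorins and VEGF, with 0.73 (FDR = 0.0198). In the quasi-likelihood test these 3 genes had FDRs of 0.0672, 0.058 and 0.0578. *Itga6*, encoding the integrin subunit CD49f, fell by 0.72 on the log2 scale (FDR = 0.0162, 0.0448 in the quasi-likelihood test), and lost its call without parental replicate 3, TRC replicate 1 or TRC replicate 3 (FDR up to 0.187). *Cd24a*, *Epcam*, *Cd34* and *Thy1* were below 1 CPM in every library.

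Over all 11 related lists, 104 of the 194 distinct genes found were tested, 13 (12.5%) were called higher and 5 (4.81%) lower, and the median log2 fold change was 0.063. These shares stand beside 8.81% and 7.05% of all genes tested. The lists were drawn up with earlier results of these data known, so the shares describe them and test nothing. In the quasi-likelihood test 9 of the 18 calls were kept, 4 higher and 5 lower. That test called 4.94% of all genes higher and 4.24% lower. Without parental replicate 3, 5 of the 18 were kept, without TRC replicate 3 7, without TRC replicate 1 9 and without parental replicate 1 14.

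**Figure D4:**
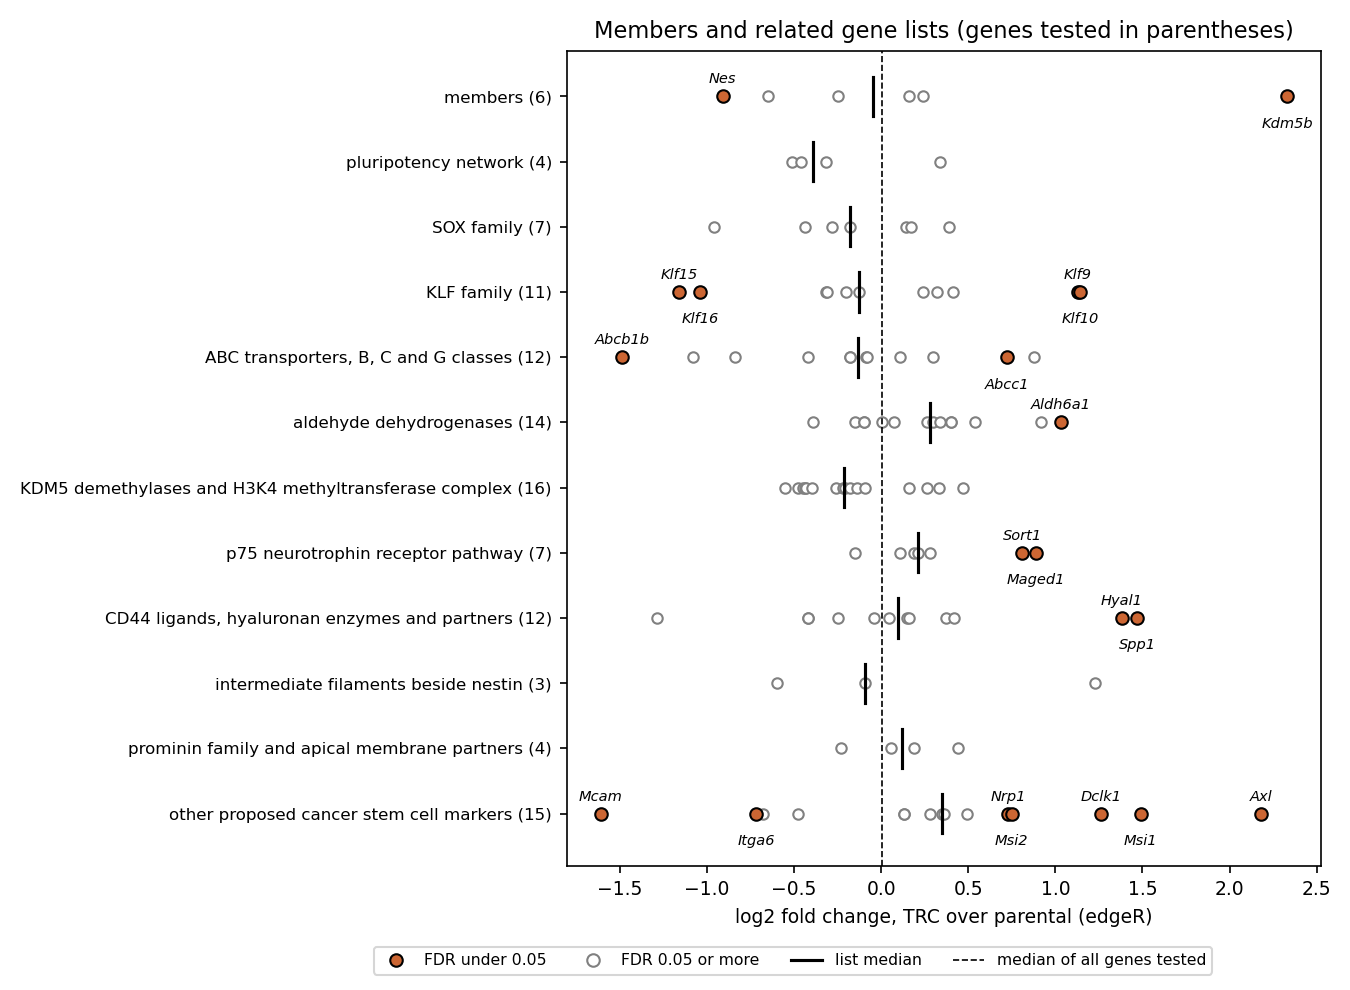
Log2 fold change (TRC over parental, edgeR) of the tested genes of the 10 markers and of 11 lists of related genes, with the number tested in parentheses. Filled points have FDR under 0.05 and carry the gene name, open points do not, short black bars are list medians and the dashed line is the median of all genes tested, 0.0034. *Kdm5b*, at 2.33, lies farther from 0 than any other point.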

How the data were processed

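RNA was extracted from parental B16F1 cells and TRCs. Per the labels and the study's methods, the authors made stranded libraries, trimmed the reads in single-end mode (Trimmomatic 0.35), used TopHat2 2.1.0 and Bowtie2 2.2.6 for alignment to GRCm38 and counted reads per Ensembl gene with htseq-count, whose strand setting is not given in the sources used here. The files the authors deposited hold these counts without normalization.

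Totals that are no gene were removed, and a gene was removed when at least 3 of the 4 libraries had less than 1 CPM, which left 11483 of 39179 genes. As in the study's methods, TMM factors (0.957 to 1.04), tagwise dispersions and the exact test were used, here in edgeR 4.0.16 under R 4.3.3. DESeq2 1.42.0 gave standard errors. An exact permutation test of 2 against 2 libraries cannot go below p = 0.333. Positions and lengths are from GENCODE M21 (GRCm38), in which 37607 identifiers were found and which gave a length for 99.3% of the genes tested. Promoters are from RefSeq, and all 10 markers matched.

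The markers and the lists were chosen with earlier results of these data known. Counts called in each list are to be read beside the 8.81% and 7.05% of all genes tested. No list was tested as a set. Every marker is named, and from each related list up to 4 genes per direction with the smallest FDR under 0.05, plus close relatives. *Gfap*, *Des*, *Ezr*, *Rdx*, *Msn*, *Kdm5d*, *Ntf3*, *Cd24a*, *Epcam*, *Cd34*, *Thy1* and the cell type markers fall outside this rule and were named after their values were seen. Alternatives were other filters, scalings and tests, a replicate block and each library left out.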

Additional observations from a re-analysis of the deposited data

Results flagged for a closer look

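Alignments that were not unique, which were assigned to no gene, made up 18.3% of all alignments in TRC replicate 1 and 25.2% in TRC replicate 3, above the 15.2% and 17.1% in parental replicates 1 and 3. They were singled out because they lie outside the counts compared here and were higher in both TRC libraries. Reads of genes with near-identical copies are among them, and their part in the levels of the markers was not tested.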

How the results depend on the processing

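*Kdm5b* kept its direction and its call in all alternatives, with log2 fold changes from 1.94 to 2.86. Of 70 recomputed log2 fold changes of the 6 markers tested, 64 kept direction and call. *Nes* lost its call in the quasi-likelihood test (-0.91, FDR = 0.0745) and with the replicate block (-0.96, FDR = 0.0852), so that 0 markers were called lower there. With the block 4.15% of all genes were called higher and 2.68% lower. With each library left out the value of *Nes* ran from -1.41 to -0.55 and the count of markers called lower from 0 to 1. For *Prom1* it ran from -2.9 to 0.37, with a positive sign of 0.37 without parental replicate 1 and of 0.16 without TRC replicate 1. Of the related genes, 13 called higher became 4 in the quasi-likelihood test and 5 with the replicate block, and 5 called lower became 2 with the block, where *Klf15* (FDR = 0.0616), *Klf16* (0.0558) and *Itga6* (0.0576) lost their calls. With each library left out these counts ran from 3 to 13 for genes called higher and from 2 to 6 for genes called lower. In *Ngfr* and *Aldh1a1* without a filter, the quasi-likelihood test, added after seeing the data, gave FDRs of 0.221 and 0.351, and DESeq2 gave no adjusted value. The number of markers below 1 CPM in all libraries was 4 under every alternative computed for it. A fit without a library leaves 1 sample in a group, which is assumed to vary like the other group. Across genes, libraries that share a number deviated from their group means with a correlation of 0.027, and nothing says that equal numbers were prepared together, so the numbers were not taken as pairs. The cause of the lost calls was not tested. With counts of 0 to 25 per library, the levels of *Sox2*, *Abcb5*, *Ngfr* and *Aldh1a1* rest on few or no counts. For *Ngfr* the parental libraries, at 25 and 4 counts, also differed beyond counting error. Their 95% counting intervals were 0.363 to 0.829 and 0.0309 to 0.29 CPM in replicates 1 and 3.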
